A study of Macaca mulatta and Mus musculus and Rattus norvegicus with 12 samples.

Results

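The collagen genes are the genes whose products carry long stretches in which glycine opens each triplet of amino acids, which lets the chains wind into a triple helix. They were taken as every row whose upper-case symbol read COL, digits, A and digits and nothing more. That gave 44 of 38599 genes in the mouse table, 44 of 35259 in the rat table and 27 of 28641 in the rhesus macaque table, and 45 symbols in all. Of these, 26 were in all 3 tables, COL21A1 was in the macaque table only, and the others were shared by the rodents.

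RNA was sequenced from 12 libraries of pulverised bone prepared so as to enrich osteocytes, which lie inside the mineralised matrix, to ask how the calvaria (the roof of the skull) differs from the tibia. Mouse had 2 libraries of each bone from 4-month-old C57BL/6 animals, each a pool of 3 mice. Rat had 1 of each bone from 6-month-old Wistar animals, each a pool of 2 rats, and macaque had 3 of each bone with 1 animal behind each. The labels give the macaques as 4 to 6 months old, whereas the methods of the study give years. All animals were female per the methods, which name no treatment. Skull and tibia came from the same animals, but which libraries form a pair is not named. Marrow was spun out of the rodent tibias, sutures and diploe were avoided in the rodent skulls, and all bone was stripped of periosteum, scraped and briefly digested with collagenase to take off surface cells.

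Fibrillar collagens (types I, II, III, V, XI, XXIV and XXVII) build the load-bearing fibrils, and type I is the bulk of bone matrix. Basement membrane collagens (type IV, with XV and XVIII beside it) form the sheets under vessels, nerves and other cells. FACIT collagens have short, interrupted triple-helical stretches and sit on fibrils, and type VI makes beaded filaments around cells. Types II, IX, X and XI are known for cartilage, from which the tibia, unlike the calvaria, is modelled during development.

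The repeat that defines the family is shown first. The structural classes used below were taken from a set list and not derived from the repeat, whose run lengths set only the fibrillar genes apart. All 44 mouse members were found in the GENCODE vM21 annotation of GRCm38, on 15 chromosomes. The longest unbroken run of triplets opening with a glycine codon (GG and any base) spanned 216 to 344 triplets in the 11 fibrillar genes, 32 to 113 in the 9 FACIT genes and 30 to 66 in the 8 basement membrane genes. Of the coding exons lying wholly inside those runs, 60.4% had exactly 54 bases in fibrillar genes, 59.4% in FACIT genes and 7.14% in basement membrane genes. The stretches below are 54 coding bases from inside that run of 6 genes on which the results turn, written along the coding strand with glycine codons in capitals. They are exons of 54 bases in COL1A1 (coding exon 8, chr11:94939904-94939957, plus strand), COL2A1 (coding exon 10, chr15:97996489-97996542, minus strand), COL3A1 (coding exon 6, chr1:45325360-45325413, plus strand) and COL9A3 (coding exon 12, chr2:180605727-180605780, plus strand). For COL10A1 (coding exon 2, chr10:34394928-34394981, plus strand) and COL4A2 (coding exon 28, chr8:11429447-11429500, plus strand) they are parts of larger exons.
COL1A1: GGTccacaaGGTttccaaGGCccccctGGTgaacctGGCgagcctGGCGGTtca
COL2A1: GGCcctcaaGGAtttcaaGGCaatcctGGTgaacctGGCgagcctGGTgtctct
COL3A1: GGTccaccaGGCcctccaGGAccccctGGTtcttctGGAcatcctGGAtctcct
COL9A3: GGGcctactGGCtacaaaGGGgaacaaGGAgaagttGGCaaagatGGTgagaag
COL10A1: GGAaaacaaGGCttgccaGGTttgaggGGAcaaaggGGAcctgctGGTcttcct
COL4A2: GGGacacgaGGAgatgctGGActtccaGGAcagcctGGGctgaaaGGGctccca

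Between 13934813 and 16826535 reads fell on genes in the mouse libraries, 12233256 and 14255423 in rat and 7951585 to 10342459 in macaque. Genes were tested where the mean was at least 5 reads per library. This kept 35 collagen genes in mouse, 33 in rat and 21 in macaque. COL4A5, COL26A1 and COL6A6 had no read in any mouse library. In rat, 7 collagen genes had none, among them COL1A2, and macaque COL9A2 had none. Rat COL1A2 was on 2 rows, both at 0, while its partner COL1A1 was the most abundant collagen, so rat COL1A2 was treated as not measured. Levels are given as CPM, a gene's reads scaled to a common library total (with TMM factors in mouse and macaque). Osteocyte and osteoblast markers summed to 1707 to 18118 CPM across the 12 libraries, and markers of marrow blood cells to 6990 to 120561, so RNA of blood cells was present in all of them. The macaque table held 7 of the 10 listed osteocyte and osteoblast symbols and 4 of the 9 for blood cells. Its sums are therefore not comparable with those of the rodents. The osteocyte and osteoblast sums were lower in calvaria, at 1707 to 3608 against 9226 to 11833 in mouse, 2202 against 8772 in rat and 6882 to 10365 against 11650 to 18118 in macaque. In mouse SOST carried most of the tibia sum, at 5925 and 8321 CPM (M5 and M7) against 1300 and 699.8 in calvaria (M4 and M8). The median log2 value (calvaria over tibia) of the mouse list was -0.75, with BGLAP and FGF23 positive. In rat MEPE (3726) and DMP1 (2782) carried most of the tibia sum, and the median was -2.22, with BGLAP positive. In macaque MEPE carried most of that sum, at 4623 to 5355 CPM in calvaria and 7085 to 16683 in tibia. SOST, which the study reports at a higher macaque level than MEPE, had no row under its symbol and is missing from the sum. The median over the 7 macaque markers was 0.22, and BGLAP, ALPL, IBSP and PHEX had positive values. The part of these cells in the collagen values below was not tested. In bulk RNA of this kind, fewer cells of a type and less RNA per cell cannot be told apart.

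COL1A1 and COL1A2, the chains of type I collagen, made up most collagen reads, a mean of 3.39% of all gene reads in mouse calvaria and 2.54% in tibia, and 5.89% and 7.17% in macaque. In mouse, all collagen genes together took 5.28% of gene reads in calvaria library M4 and 2.13% in M8, and 3.46% and 2.30% in tibia libraries M5 and M7. In macaque they took 5.73%, 4.80% and 7.71% in calvaria (G1, G3 and T1) and 4.33%, 4.32% and 13.6% in tibia (G2, G4 and T2). The sites overlapped in both species, with T2 far above the other macaque libraries and M4 above the other mouse libraries. The mean share was 3.71% ± 2.22 in mouse calvaria and 2.88% ± 0.821 in tibia (SD, n = 2 each, exact two-sided permutation test, p = 1), and 6.08% ± 1.49 and 7.41% ± 5.34 in macaque (SD, n = 3 each, p = 1 by the same exact test). The exact permutation test cannot go below p = 0.3333 with 2 libraries against 2, or below 0.1 with 3 against 3. Without M4 the mouse difference, 0.827 percentage points, became -0.745, and without T2 the macaque difference, -1.33 points, became 1.75. In rat, where COL1A2 was not measured, the share was 0.905% in calvaria and 0.523% in tibia.

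**Figure D1:**
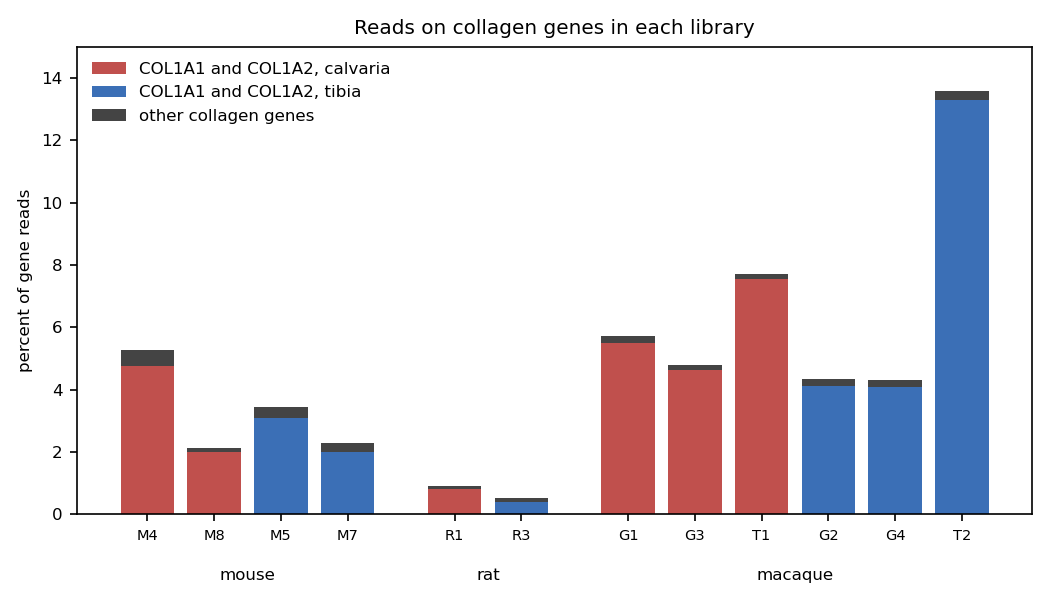
Percent of reads on genes that fell on collagen genes, one bar per library, with COL1A1 and COL1A2 in red for calvaria or blue for tibia and the other collagen genes in dark grey on top. The tallest bar is macaque tibia T2 at 13.6%, and the rat bars (0.905% and 0.523%) lack COL1A2, which had no reads in that table.

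Read for length, type I collagen stood far above every other type. Mean levels were 3047 CPM per kb for COL1A1 and 2951 for COL1A2 in mouse, and 4868 and 7004 in macaque. The next genes were COL8A1 (65.7), COL5A2 (59.0) and COL3A1 (50.1) in mouse. Among macaque rows named by a collagen symbol they were COL5A2 (70.5), COL6A3 (69.6) and COL3A1 (56.1). Macaque collagen rows named only by a LOC number were not ranked. A LOC row described as like the alpha-1 chain of type V had more reads than COL5A2 in every library, on 2721 against 6896 bases. The row that the RefSeq table equates with COL13A1 had 1894 to 3499 reads on 2911 bases. COL5A2 encodes a chain of type V collagen, which sits inside type I fibrils, and COL8A1 a short-chain, network-forming collagen.
COL1A1 reads numbered 358127 (M4) and 136448 (M8) in mouse calvaria and 268926 (M5) and 129676 (M7) in mouse tibia. Macaque COL1A1 reads numbered 184400, 175096 and 323135 in calvaria G1, G3 and T1 and 144541, 138757 and 571938 in tibia G2, G4 and T2. The bones overlapped in both species. The log2 fold change of COL1A1 (calvaria over tibia throughout) was 0.47 ± 0.49 (SE) in mouse and -0.06 ± 0.46 in macaque, with adjusted p = 0.810 and 0.951 (edgeR quasi-likelihood test, Benjamini-Hochberg). Without T2, 1 of the 6 macaque fits leaving out a library, the value was 0.82 and passed the threshold used throughout, an adjusted p under 0.2 together with a change of more than 1.1-fold. Rat COL1A1 had 117723 reads in calvaria and 48038 in tibia, a ratio of 2.10 (95% interval 2.08 to 2.13 from an exact binomial interval, counting error only) with no replicate behind it.

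Most genes of cartilage collagens had lower values in calvaria than in tibia in both rodents, though none passed the main test in mouse. No mouse collagen gene passed the threshold in the quasi-likelihood test, where 0.174% of all 16682 tested genes did (0.0120% toward calvaria and 0.162% toward tibia), although 8 of the 35 had an unadjusted p under 0.05, as did 7.75% of all tested genes. DESeq2 called 5 (COL2A1, COL9A3, COL10A1 and COL11A1 toward tibia and COL3A1 toward calvaria) where it called 2.92% of all genes, and edgeR's exact and likelihood ratio tests 6 each (3.56% and 4.13% of all genes). Among the 7 mouse cartilage genes, 6 were lower in calvaria and 5 did not overlap between the bones, a state that 40.7% of all tested mouse genes were in. COL9A2 and COL10A1, both among the 5, were tested only because of their tibia reads.
COL2A1, the chain of type II collagen, had 909 reads in M4 and 137 in M8 against 10478 in M5 and 6963 in M7. Every tibia library was above every calvaria library, but the calvaria libraries also differed from each other 5.56 times. Scaled to depth, this was 34.4 ± 33.8 CPM in calvaria and 533.7 ± 82.3 in tibia (SD, n = 2 each), a log2 fold change of -3.96 ± 0.84 (SE) with adjusted p = 0.427 in edgeR's quasi-likelihood test and 2.52e-07 in DESeq2. With skull and tibia libraries paired by their numbering, an assumption, as a block, COL2A1 passed at -4.41, adjusted p = 0.0716 (edgeR quasi-likelihood). It also passed with the libraries paired the other way, where COL9A3 and COL10A1 did as well.
COL9A3, a chain of the FACIT collagen IX that coats type II fibrils, had 12 and 8 reads in calvaria and 98 and 97 in tibia, at -3.12 ± 0.46 with adjusted p = 0.266 (edgeR quasi-likelihood). COL10A1, the short-chain collagen of hypertrophic cartilage, had 2 and 6 reads in calvaria and 102 and 64 in tibia, at -4.11 ± 0.71 with adjusted p = 0.319 in the same edgeR test. In both genes the tibia libraries were close to each other and far above the calvaria. COL9A2 had 3 and 1 reads against 18 and 23.
COL11A1, which pairs with type II in cartilage and also occurs in other fibrils, was less uneven, with 4313 and 1755 reads in calvaria and 10871 and 6720 in tibia and a log2 fold change of -1.39 ± 0.40. COL11A2 was level at -0.01 ± 0.35, and COL9A1 had 4 to 21 reads per library and overlapped. The ratio of COL11A1 to COL11A2 per kb was 0.922 and 0.831 in calvaria (M4 and M8) and 2.36 and 2.24 in tibia (M5 and M7). The bones did not overlap in that ratio, and the exact permutation p was 0.3333, the lowest that 2 against 2 allows.

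**Figure D2:**
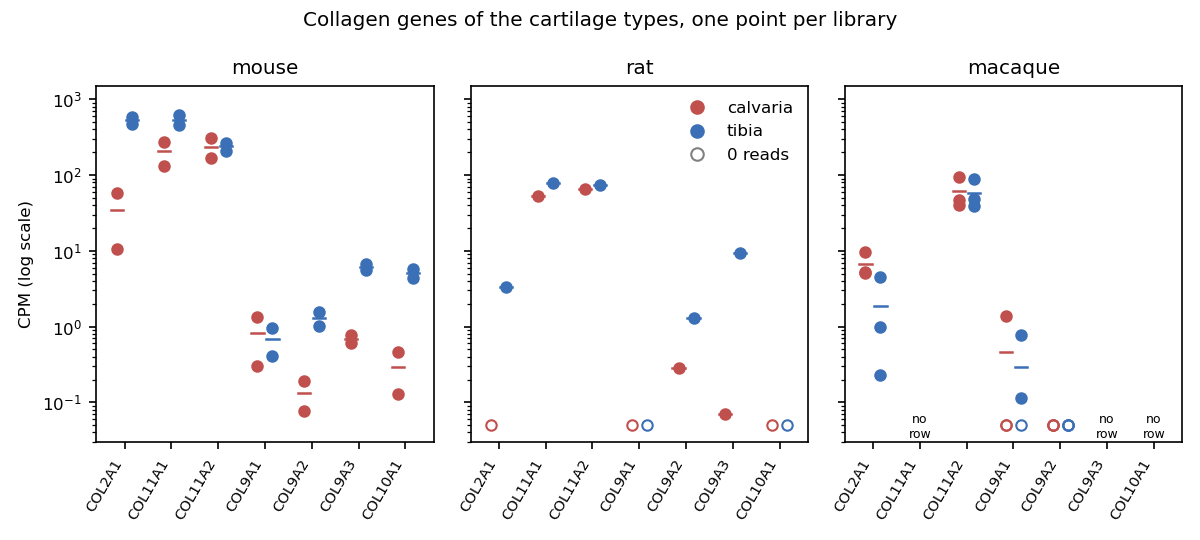
CPM (reads per library scaled to a common total) on a log axis for the 7 genes of cartilage collagens, with 1 point per library, short lines at the mean of each bone and open circles at the bottom for 0 reads (rat values are not TMM-scaled). Mouse COL2A1, COL9A2, COL9A3 and COL10A1 lie well above the calvaria in both tibia libraries, whereas macaque COL2A1 is higher in calvaria.

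Rat cartilage collagens also had more reads in tibia, relative to depth, where they had reads. Of 33 collagen genes, 3 passed the study's threshold of a log2 ratio beyond 2, all of them higher in tibia, where 7.43% of all tested rat genes passed it and 6.66% toward tibia. COL2A1 had 0 reads in calvaria and 41 in tibia, at least 15.9-fold higher against a floor of 3 reads in the calvaria library. Both this gene and COL9A3 passed the count filter only through tibia reads, so a difference was built into their being tested. COL9A3 had 1 read in calvaria and 115 in tibia, a ratio of 134 with a counting interval of 23.6 to 5339. The remaining gene was COL18A1, described with the basement membrane genes. COL11A1 (765 and 975 reads, log2 ratio -0.57) and COL11A2 (943 and 916, -0.18, and 0.11 with TMM factors) did not pass, and COL9A1 and COL10A1 had no reads in either rat library.
In macaque, COL2A1 went the other way. It had 43, 41 and 80 reads in calvaria (G1, G3 and T1) and 9, 2 and 46 in tibia (G2, G4 and T2), so these low counts did not overlap by a narrow margin, 5.16 against 4.46 CPM. COL2A1 rose by 1.79 ± 0.74 on the log2 scale with adjusted p = 0.149 (edgeR quasi-likelihood), and by 2.22 with adjusted p = 0.0143 with skull and tibia libraries paired by their numbering, an assumption, as a block. It passed in 1 of the 6 unblocked fits that each leave out a library, the one without T2, where the log2 fold change was 3.42, and missed the threshold in the other 5.
The site difference of COL2A1 differed between mouse and macaque. The interaction was -5.73 ± 1.13 (SE) on the log2 scale, mouse minus macaque, with adjusted p = 0.0505 (edgeR quasi-likelihood, 6559 genes), and it passed in 9 of 10 fits that each left out a library, missing the threshold without M5 at -5.56 (adjusted p = 0.202). COL2A1 and COL3A1 were the 2 of 18 collagen genes that passed this test, which 7.62% of all genes in it passed. Species, sequencing lane, genome and annotation cannot be told apart here, since mouse and rat ran on lane 3 and macaque on lane 4.
Chondrocyte markers other than collagens summed to less in calvaria in each species, though in macaque the sum was nearly all HAPLN1. Their summed level was 53.9 (M4) and 25.8 (M8) CPM in mouse calvaria against 210.0 and 247.1 in tibia, 8.21 against 35.8 in rat, and 9.69 to 16.3 against 31.2 to 77.4 in macaque. In mouse, 1 of 8 tested chondrocyte markers passed, toward tibia, and it was CYTL1. In macaque 1 of 2 passed, also toward tibia, namely HAPLN1, while COMP had no reads and SOX9 had 0 to 4 per library. HAPLN1 gave 64.6 of 65.1 CPM in G2, 77.1 of 77.4 in G4 and 29.5 of 31.2 in T2. The macaque sum therefore reads 1 gene and not a set of markers. The part of such cells in the COL2A1 values was not tested.

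COL3A1, the fibrillar collagen of soft, vascular tissue, was the largest mouse difference toward calvaria. It had 13101 reads in M4 and 1734 in M8 against 1414 in M5 and 934 in M7. The bones did not overlap, yet M8 sat near the tibia and M4 far above it. The log2 fold change was 2.76 ± 0.86 with adjusted p = 0.591 in edgeR's quasi-likelihood test. It was 0.86 without M4, and the mouse COL3A1 call was reached in 2 of 4 fits that left out a library.
In rat COL3A1 had 301 reads in calvaria and 499 in tibia (log2 ratio -0.95). In macaque it had 3095, 2044 and 1336 in calvaria G1, G3 and T1 and 3489, 3597 and 2915 in tibia G2, G4 and T2, with overlap and a log2 fold change of -0.44 ± 0.27 that did not pass (adjusted p = 0.340, edgeR quasi-likelihood). With pairs as a block macaque COL3A1 was at -0.50, adjusted p = 0.0688, and passed. The COL3A1 interaction between mouse and macaque was 3.18 ± 0.83, adjusted p = 0.110 (edgeR quasi-likelihood), and it passed in 7 of 10 fits that left out a library. Without M5 (3.36), M7 (3.02) or G2 (3.14) it did not.

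The 2 mouse calvaria libraries stood apart from each other over much of the family. Relative to M8, M4 was higher for 30 of 35 collagen genes and over 2-fold higher for 25, with a median log2 ratio of 1.56, against 0.01 over all tested genes, 16.7% of which were over 2-fold higher. The tibia libraries M5 and M7 differed over 2-fold for 1 collagen gene, COL9A1.
The widest gaps between M4 and M8 were in COL14A1 (11.1-fold), COL8A2 (10.9-fold), COL16A1 (9.94-fold), COL12A1 (9.43-fold) and COL6A3 (8.61-fold). COL12A1, COL14A1 and COL16A1 are FACIT collagens of dense connective tissue, and COL6A3 is the long chain of type VI. COL16A1 had 4817 reads in M4 and 407 in M8, with 693 and 530 in tibia, so M8 was below both tibia libraries and M4 far above. COL12A1 had 3540 and 315 in calvaria and 1249 and 834 in tibia, the same arrangement.
Type I collagen differed less, 2.21-fold for COL1A1 and 2.24-fold for COL1A2, and COL9A3 by 1.24-fold. COL20A1, COL6A5, COL10A1, COL7A1 and COL25A1 were lower in M4.
Markers of tendon and periosteum were higher in M4 than in M8, at 983.7 and 155.0 CPM, with 302.2 and 380.2 in tibia. So were markers of osteocytes and osteoblasts (3608 and 1707), osteoclasts (2495 and 1095) and skeletal muscle (2723 and 1621). Sums for pericytes and smooth muscle (321.1 and 124.5), adipocytes (512.9 and 197) and chondrocytes (53.9 and 25.8) were also higher in M4. Endothelial (180.3 and 165.3) and Schwann cell sums (197.6 and 188.8) were nearly level. Blood-cell markers went the opposite way between the calvaria libraries, 90505 in M4 and 120561 in M8. The part of any of these cells in the collagen values was not tested. Leaving out M4 put 28 of 37 collagen genes past the threshold, 25 of them toward tibia, where 45.5% of all genes passed (24.0% toward tibia), and leaving out M8 put 22 of 34 past it, 15 of them toward calvaria, where 21.1% of all genes passed (10.6% toward calvaria). In these fits the remaining calvaria library is assumed to vary as the tibia libraries do.

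**Figure D3:**
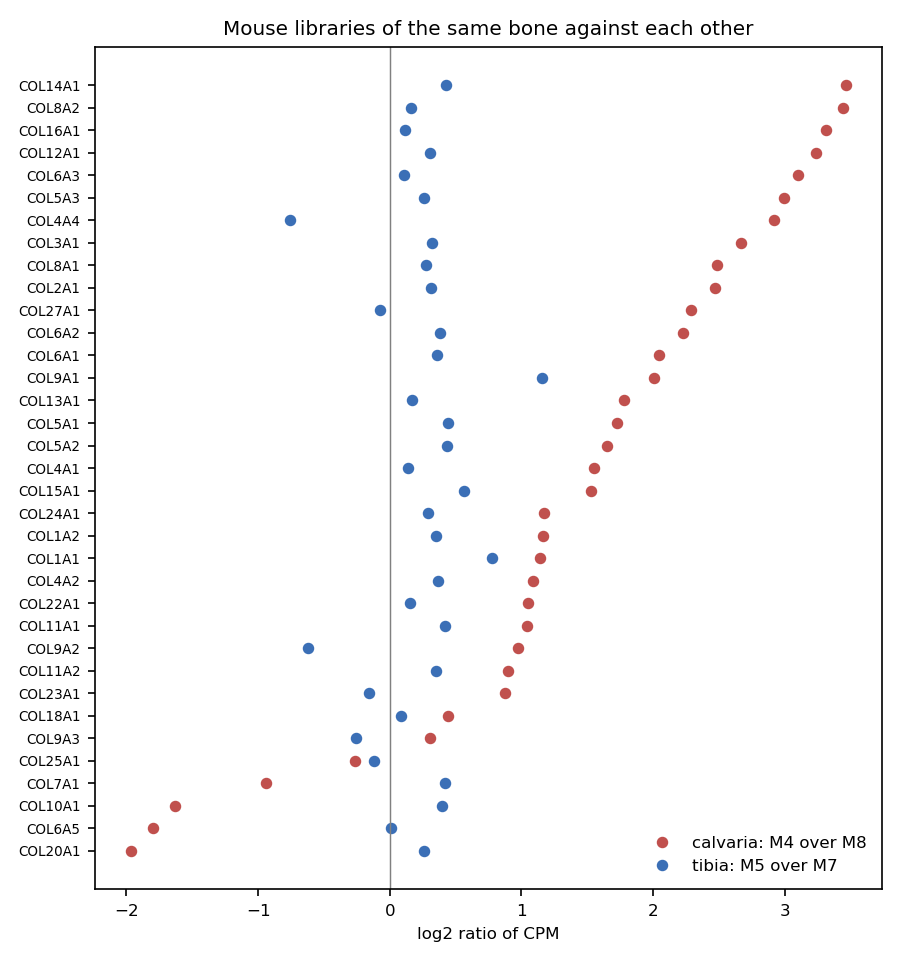
Log2 ratio of CPM between the mouse libraries of the same bone for the 35 tested collagen genes, calvaria M4 over M8 in red and tibia M5 over M7 in blue. Calvaria ratios run from -1.97 for COL20A1 to 3.47 for COL14A1. The tibia points run from -0.76 for COL4A4 to 0.78 for COL1A1, apart from COL9A1 at 1.16.

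Other fibrillar genes were without a site difference past the threshold in mouse. COL5A1 had 10912 and 2771 reads in calvaria and 4483 and 2732 in tibia (log2 fold change 1.05 ± 0.58), and COL5A2 had 9895 and 2643 against 7395 and 4525 (0.20 ± 0.55). M4 was above the tibia libraries in both genes, while M8 lay between them for COL5A1 and below them for COL5A2. The ratio of COL5A1 to COL5A2 per kb was steadier, at 0.857 and 0.815 in calvaria and 0.471 and 0.469 in tibia (exact permutation p = 0.3333, the lowest possible). In rat that ratio was 1.21 and 1.34. COL3A1 and COL5A2 lie tail to tail on mouse chromosome 1, 24614 bases apart, and had log2 fold changes of 2.76 and 0.20.
COL8A1 had 5751 and 860 reads in mouse calvaria and 8817 and 6013 in tibia, without overlap, at -1.07 ± 0.77 and adjusted p = 0.754 (edgeR quasi-likelihood). Rat COL8A1 had 157 and 348, a tibia over calvaria ratio of 2.58 (counting interval 2.13 to 3.14). COL8A2, its partner, had 3393 and 261 in mouse calvaria and 1213 and 898 in tibia, so the ratio of COL8A1 to COL8A2 per kb was 1.47 and 2.85 in calvaria and 6.29 and 5.79 in tibia.

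Basement membrane collagens had negative log2 values in both rodents, without a mouse gene past the threshold. All 5 tested mouse genes and all 6 tested rat genes had them, but mouse COL4A4 (4 and 0 reads against 7 and 10) and rat COL4A6 passed the count filter only through their tibia reads. Of the mouse genes 4 did not overlap, COL4A4 among them, as was true of 40.7% of all tested genes, and COL4A1 overlapped (1368 and 391 reads against 1505 and 1133). In rat, the intervals of COL4A3, COL4A5 and COL4A6 include 1. COL4A1 and COL4A2, the chains of the common type IV network, lie head to head on mouse chromosome 8 and overlap by 22 bases at their starts. COL4A2 had 579 and 229 reads in mouse calvaria and 952 and 609 in tibia (-0.80 ± 0.40, adjusted p = 0.693, edgeR quasi-likelihood). In rat, COL4A1 had 482 and 1303 reads and COL4A2 251 and 648, tibia over calvaria ratios of 3.15 (interval 2.84 to 3.50) and 3.01 (2.60 to 3.49). The ratio of COL4A1 to COL4A2 per kb stayed between 1.36 and 2.04 in all 6 rodent libraries.
COL18A1, whose C-terminal fragment is endostatin, had 57 reads in rat calvaria and 331 in tibia, a tibia over calvaria ratio of 6.77 (interval 5.10 to 9.13) and a log2 ratio of -2.74, which is beyond 2. In mouse it had 65 and 40 reads in calvaria and 149 and 116 in tibia (-1.18 ± 0.35, adjusted p = 0.569, edgeR quasi-likelihood), without overlap. Skeletal muscle markers summed to 10.2 CPM in rat calvaria and 1297 in rat tibia, with 10 of 10 beyond 2 toward tibia. Endothelial markers summed to 221.6 and 424.6 in rat and to 165.3 to 180.3 and 246.2 to 249.6 in mouse calvaria and tibia. Pericyte and smooth muscle markers were 88.7 and 269.3 in rat, but overlapped in mouse (124.5 to 321.1 and 265.2 to 266.6). Mouse Schwann cell (188.8 to 197.6 and 325.2 to 371.1) and adipocyte markers (197 to 512.9 and 1024 to 1325) were lower in calvaria. In rat these were nearly level (26.6 and 23.3, and 458.1 and 489). Their part in the basement membrane values was not tested.

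In macaque the basement membrane group was split. Of 21 tested collagen genes 3 passed the threshold, where 28.2% of all 13338 tested genes did, and 2 of the 3 were type IV chains. COL4A6, a chain found in a restricted set of basement membranes, had 57, 62 and 48 reads in calvaria (G1, G3 and T1) and 24, 10 and 19 in tibia (G2, G4 and T2). Every calvaria library was above every tibia library. COL4A6 rose by 1.86 ± 0.41 (SE) with adjusted p = 0.0167 (edgeR quasi-likelihood) and kept the call in all 6 fits that left out a library, where it ran from 1.62 to 2.18. Of the 21 it alone was under a false discovery rate of 0.05, which 11.2% of all tested genes were. COL4A5, its head-to-head neighbour on the mouse X chromosome, was also higher in all 3 assumed pairs, at 0.45 ± 0.27 without a call (adjusted p = 0.319, edgeR quasi-likelihood), and its bones did not overlap. Non-overlapping bones were seen for these 2 genes and COL2A1 among the 21, against 32.5% of all tested genes. Mouse had 1 read of COL4A6 and none of COL4A5. In rat both had more reads in tibia, 12 and 19 for COL4A5 (tibia over calvaria 1.84, interval 0.850 to 4.17) and 4 and 7 for COL4A6 (2.04, 0.518 to 9.50), but the intervals include 1.
COL4A2 had 1500, 929 and 906 reads in macaque calvaria and 1863, 1609 and 1760 in tibia, with overlap. It fell by 0.45 ± 0.20 on the log2 scale with adjusted p = 0.184 (edgeR quasi-likelihood), and by 0.48 with adjusted p = 0.0512 with the block. The COL4A2 call was lost without G2, G3, G4 or T1 and under correction for exonic length. COL15A1, a vessel-associated relative of COL18A1, was at -0.58 ± 0.29, adjusted p = 0.233 (edgeR quasi-likelihood), and passed with the block, at -0.51 and adjusted p = 0.111. Taken as a share of reads, the macaque basement membrane genes took 0.0179% ± 0.00498 in calvaria and 0.0263% ± 0.00248 in tibia (SD, n = 3 each). These shares did not overlap, at the lowest p the exact permutation test allows, 0.1. They are of raw library totals, without the TMM factors (0.8842 to 0.9892 in calvaria, 0.998 to 1.128 in tibia). On TMM-scaled CPM COL4A2, which gave most of these reads, overlapped (181.3 in G1 against 170.5 in T2). The TMM-scaled sum was not tested. The macaque sum of pericyte and smooth muscle markers was higher in tibia (588 to 948 against 1008 to 1556 CPM). RGS5 (161.2 to 223.8 against 454.6 to 739) and PDGFRB (325.3 to 513 against 408.7 to 646.7) carried most of it. Of 5 tested markers 2 passed, toward tibia, while the smooth muscle genes ACTA2 and MYH11 had positive log2 values (0.14 and 0.47). Endothelial markers were nearly level (420.1 to 523.3 against 498.8 to 551.0). Tendon and periosteum markers were also higher in tibia (12.7 to 16.2 against 52.8 to 58.8 CPM), with 3 of 4 tested passing. Adipocyte markers went the other way (1678 to 2556 against 681 to 1432 CPM). Their part was not tested.
Macaque libraries also carried uneven amounts of blood-cell RNA, with markers at 35661 to 59113 CPM in calvaria and 6990 to 13833 in tibia, and all 4 tested markers called toward calvaria. Scaling by library size alone, which moved the median of all macaque genes to -0.21, called 5 of 21 collagen genes (3 toward tibia), where 33.5% of all genes were called, against 3 with TMM factors (1 toward tibia). The same change took all macaque genes called from 1932 toward calvaria and 1833 toward tibia to 1301 and 3162.

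**Figure D4:**
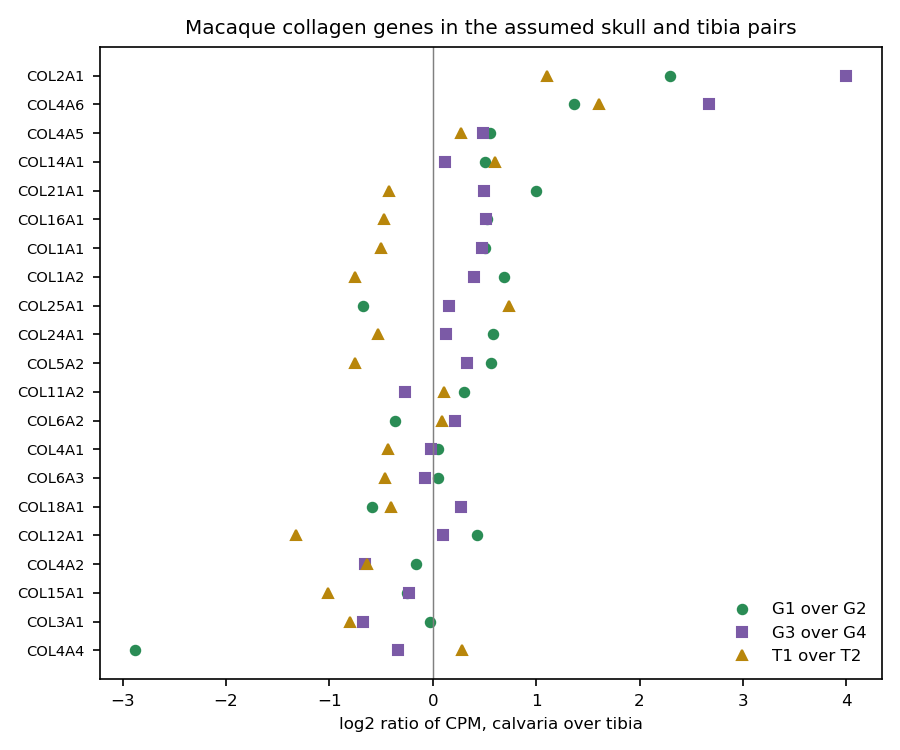
Log2 ratio of CPM, calvaria over tibia, of the 21 tested macaque collagen genes in the 3 assumed skull and tibia pairs. COL2A1 and COL4A6 lie to the right in every pair, and COL1A1, COL1A2, COL5A2, COL12A1, COL16A1, COL21A1 and COL24A1 lie to the right in the G pairs and to the left in T1 over T2.

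The pair of T1 and T2 went its own way for COL1A1, COL1A2 and COL5A2, though not for the fibrillar COL3A1. In the assumed pairs, 4 collagen genes were higher in calvaria in all 3 pairs (COL2A1, COL4A5, COL4A6 and COL14A1) and 3 in tibia (COL3A1, COL4A2 and COL15A1), so 14 of 21 were mixed, whereas 53.0% of all tested genes kept 1 direction. COL1A1 was higher in calvaria by 0.50 and 0.48 on the log2 scale in the G pairs and stood at -0.50 in T1 over T2. COL5A2 ran 0.57, 0.33 and -0.75, and COL12A1 0.43, 0.10 and -1.32. COL5A2 reads were 3793, 3028 and 4508 in calvaria and 2842, 2653 and 9487 in tibia, so T2 alone was above the calvaria. Without T2, 9 of 21 collagen genes passed the threshold, where 37.5% of all genes did, and 7 were toward calvaria (19.8% of all genes), among them COL1A1, COL1A2 and COL5A2.
COL6A3 overlapped between the bones in macaque, with 6328, 5375 and 4639 reads in calvaria and 6757, 6229 and 8012 in tibia (-0.15 ± 0.16). COL6A2 had 99 to 164 reads per library (0.01 ± 0.27). As a share of raw library totals, the macaque type VI genes took 0.064% ± 0.013 in calvaria and 0.0813% ± 0.00316 in tibia (SD, n = 3 each), without overlap. The exact permutation p of that share was 0.1, the lowest the test allows. With TMM factors COL6A3, which gave nearly all of these reads, overlapped (765 CPM in G1 against 736.5 in G2 and 711.5 in G4). A TMM-scaled type VI sum was not tested. In rat, COL6A1 (1087 and 1418), COL6A2 (672 and 1104) and COL6A3 (655 and 1912) were all higher in tibia by counting intervals that exclude 1, with COL6A3 at 3.40 (3.11 to 3.72), and none beyond the threshold. In mouse all 4 tested type VI genes had positive values, 0.17 to 1.12, with calvaria M8 below both tibia libraries for COL6A1 (2220 and 452 reads against 1498 and 968), COL6A2 (2434 and 437 against 1682 and 1066) and COL6A3 (4857 and 474 against 1578 and 1208).
Over the whole family, 21 of 33 tested rat genes (63.6%) had a counting interval wholly toward tibia and 3 toward calvaria (COL1A1, COL5A2 and COL6A5), against 46.0% and 16.5% of all tested rat genes on the same unshifted CPM. Of the 33, COL2A1, COL4A6, COL9A2 and COL9A3 were tested only because of their tibia reads and COL7A1 because of its calvaria reads. The median rat log2 ratio was -0.84 for collagens and -0.29 for all tested genes, and TMM factors moved these to -0.56 and -0.00476. Collagen genes are long, and in macaque the fold change of all genes fell with exonic length (Spearman rho -0.219 across genes, which are not independent replicates), with a median of 5604 bases for the tested collagens and 2233.5 for all tested genes. Corrected for length, 4 of 21 macaque collagen genes passed, all toward calvaria (COL2A1, COL4A5, COL4A6 and COL14A1), where 3469 of all 13338 genes passed (14.1% of the tested genes toward calvaria). With the block as well 6 passed, all toward calvaria (COL1A1 and COL16A1 added), against 35.3% (18.9% toward calvaria).

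**Figure D5:**
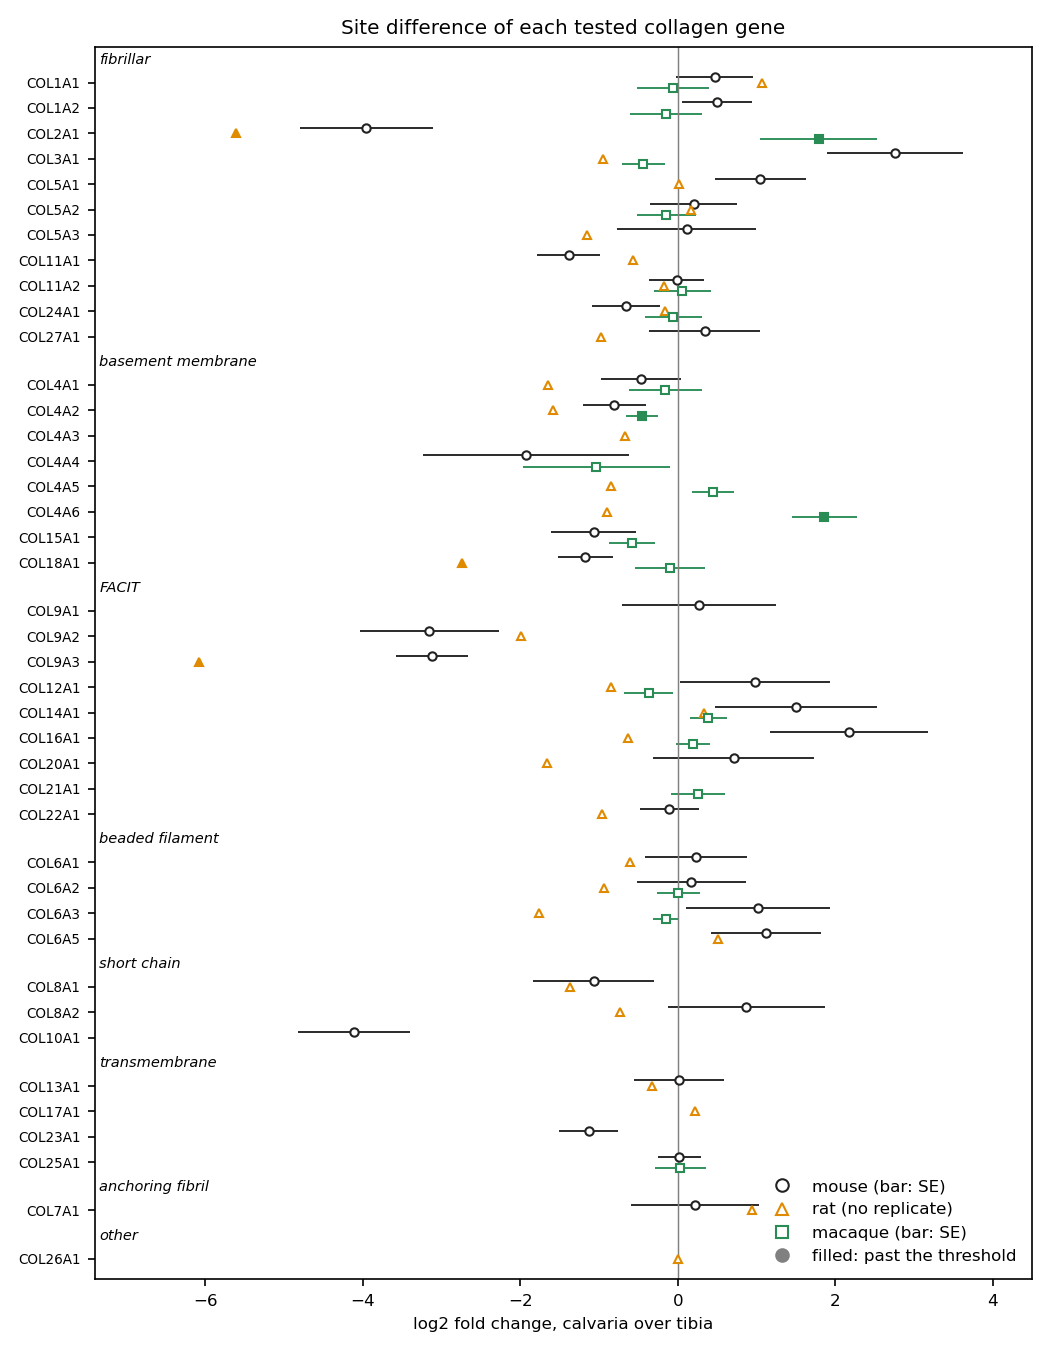
Log2 fold change, calvaria over tibia, of each tested collagen gene by structural class, with circles and SE bars for mouse, squares and SE bars for macaque and triangles for the single rat ratio (1 read added, so the rat COL2A1 point depends on that choice). Filled symbols passed the threshold, which are macaque COL2A1, COL4A2 and COL4A6 and rat COL2A1, COL9A3 and COL18A1.

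The remaining classes held few differences. Of all 35 tested mouse collagen genes 13 did not overlap between the bones, 12 higher in tibia and COL3A1 higher in calvaria, which as a share is close to the 40.7% of all tested genes. Among the membrane-spanning collagens, mouse COL23A1 had 145 and 66 reads in calvaria and 264 and 243 in tibia (-1.13 ± 0.37, adjusted p = 0.604, edgeR quasi-likelihood). COL25A1, the collagen of amyloid plaques and of motor nerve targeting, was level at 135 and 136 against 159 and 143. COL13A1 had a log2 fold change of 0.02, but its calvaria libraries differed 3.43-fold (1129 and 276 reads against 866 and 636). On leaving out a library COL13A1 ran from -1.16 to 0.65.
COL24A1, a minor fibrillar collagen of bone, had 234 and 87 reads in mouse calvaria and 333 and 225 in tibia (-0.66 ± 0.43) without overlap, and was even in rat (103 and 99) and macaque (-0.06). COL7A1, the anchoring fibril collagen of skin, had 6 to 10 reads in each mouse library. Rat COL20A1 had 20 and 56 reads (tibia over calvaria 3.26, interval 1.93 to 5.74), COL5A3 80 and 153 (2.23, 1.69 to 2.96) and COL12A1 999 and 1542 (1.80, 1.66 to 1.95). In macaque the 4 tested FACIT genes ran from -0.37 for COL12A1 to 0.39 for COL14A1, with none called.
Under the count filter were 9 mouse genes with at most 19 reads over the 4 libraries, COL4A3, COL17A1, COL19A1, COL28A1, COL6A4 and COL4A6 beside the 3 without reads. The 11 in rat were COL19A1, COL25A1, COL28A1 and COL4A4, with at most 9 reads, and 7 without reads. The 6 in macaque were COL4A3, COL5A3, COL6A6, COL9A1, COL9A2 and COL19A1, with at most 19 reads over the 6 libraries.

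Ratios between chains of the same collagen were compared between species. COL1A1 over COL1A2 per kb was 0.876 to 1.18 in mouse and 0.621 to 0.785 in macaque. COL4A1 over COL4A2 was 1.36 to 2.04 in mouse, 1.87 and 1.95 in rat, within the mouse range, and 0.0159 to 0.0544 in the macaque libraries, where COL4A1 had 26 to 95 reads. COL6A3 over COL6A2 was 11.3 to 22.1 in macaque and at most 1.11 in the rodents. Since each species has its own genome and annotation, these ratios are levels on 3 different gene models, and expression and annotation cannot be told apart in them.
The macaque table names many genes by a LOC number only, and 26 of the 44 rodent collagen symbols had a row of their own there. Rows outside the symbol rule that the RefSeq table equates with collagens included COL6A1, with 1478, 1302 and 1633 reads in calvaria (G1, G3 and T1) and 2213, 2471 and 2690 in tibia (G2, G4 and T2). It did not overlap between the bones and fell by 0.54 ± 0.15, adjusted p = 0.0447 (edgeR quasi-likelihood). With such rows renamed, 5 of 29 tested macaque collagen genes passed, where 28.2% of all genes did. The row equated with COL8A1 had 1464, 1200 and 1170 reads against 2342, 1364 and 2369 and fell by 0.45 ± 0.20, adjusted p = 0.176 in the same edgeR fit. The row equated with COL10A1 had 42, 35 and 11 against 65, 45 and 43 and was at -0.60 without a call, and that equated with COL11A1 had 417, 380 and 1356 against 222, 193 and 1550 reads, a log2 fold change of 0.41 without a call.

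Genes that fold, modify, secrete, cut, cross-link or bind collagen were read the same way. Of 48 such genes, all tested in mouse, none passed edgeR's quasi-likelihood test, where 0.174% of all tested genes did. Among the 48, 4 had an unadjusted p under 0.05 in that test, as did 7.75% of all tested genes. DESeq2 called 4 (2.92% of all genes), the exact test 3 (3.56%) and the likelihood ratio test 4 (4.13%). The median log2 fold change of the list was 0.02 in mouse, -0.19 in macaque and -0.61 in rat, against 0.05, -0.00411 and -0.29 over all genes, and the rat median of the folding and modification genes was -0.91. COLGALT2, a galactosyltransferase of collagen hydroxylysine, had 24 and 4 reads in mouse calvaria and 299 and 197 in tibia, at -4.00 ± 0.70 and adjusted p = 0.326 (edgeR quasi-likelihood).
In macaque 5 of 33 tested passed, all lower in calvaria, against 28.2% of all tested genes, 13.7% toward tibia, so their share was below that of all genes. PLOD1, a lysyl hydroxylase, fell by 0.41 ± 0.15, and FKBP14, a collagen-folding isomerase, by 0.78 ± 0.27. TLL1, a tolloid-like protease that trims procollagen, had 6, 1 and 3 reads in calvaria (G1, G3 and T1) and 23, 41 and 31 in tibia (G2, G4 and T2) and fell by 3.02 ± 0.67, adjusted p = 0.0172 (edgeR quasi-likelihood). It passed the count filter only through its tibia reads, so a difference was built into its being tested. The collagen-binding integrin chains ITGA10 and ITGA1 fell by 0.80 ± 0.15 and 0.62 ± 0.24, ITGA10 from 2517 to 2746 reads in tibia to 1279 to 1401 in calvaria. With pairs as a block 12 of 33 passed, where 36.7% of all genes did, 4 of them higher in calvaria (PCOLCE, PCOLCE2, PPIB and SPARC). In rat, P4HA2, a prolyl hydroxylase chain, with 174 and 699 reads and ADAMTS14, a procollagen N-proteinase, with 29 and 118 were beyond 2 toward tibia among 43 tested, where 6.66% of all genes were, though neither was with TMM factors (-1.94 and -1.92).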

How the data were processed

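Raw read counts per gene were used as deposited by the authors, who sequenced poly(A)-enriched RNA, mapped single-end reads to mm10, rn6 or the macaque MacaM assembly and counted them over merged exons with HTSeq without strand. The aligner is HISAT2 2.0.5 in the study's methods and BWA 0.7.10-r789 in the submitters' processing notes, which also name edgeR 3.16.5. The deposited normalized CPM columns, a signal scaled per library by the authors, were not used, and the deposited covered length in bases (unit other) served for levels per kb. Unstranded counting cannot separate overlapping or antisense genes.

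Rows sharing an upper-case symbol were summed, and rows naming no gene (0.00261% to 0.0663% of reads) were left out. The collagen genes and gene lists were chosen with earlier results of these data known. Genes with a mean of at least 5 reads per library were fitted over all genes of a species with edgeR 4.0.16 (TMM factors, glmQLFit, glmQLFTest) in R 4.3.3. Calls needed a Benjamini-Hochberg adjusted p under 0.2 and a fold change over 1.1. Rat, with 1 library per bone, was given as a log2 ratio of CPM with 1 read added, threshold 2, and exact 95% binomial intervals, which cover counting error only. A gene at 0 was given against a floor of 3 reads. Mouse and macaque site effects were compared by their interaction. SEs are the log2 fold change divided by the square root of F. Shares were taken of raw library totals, without TMM factors, and compared by exact permutation over libraries in SciPy. Libraries of a group are separate animals or pools, so p-values measure the spread between them.

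Skull and tibia pairs are stated but not named, so M4 with M5, M8 with M7, G1 with G2, G3 with G4 and T1 with T2 were assumed from the numbering. In macaque, deviations from the bone means correlated by 0.179, 0.261 and 0.425 in these pairs and by -0.33 to 0.087 otherwise, so the block is printed where it changes a call. Named with values in every library are collagen genes called in mouse, macaque or the interaction, beyond 2 in rat, or among the 5 highest per kb in a species, and genes a result turns on, with up to 4 called processing genes per direction by smallest p. COLGALT2, ITGA1, CYTL1, HAPLN1 and the processing genes called with the block alone were named after their values were seen. The fits were tested on simulated data with 200 changed genes: of 100 genes changed 2-fold, mouse recovered 7% and macaque 52%, of 100 changed 8-fold both recovered 100%. The changed genes were drawn from the more abundant ones, and all counts of a species shared a common dispersion. These rates therefore do not carry over to genes with few reads or uneven libraries. Mouse COL2A1 (-3.96), COL9A2 (-3.16), COL9A3 (-3.12) and COL10A1 (-4.11) had log2 fold changes beyond 8-fold and were not called. Alternatives covered scaling, DESeq2 1.42.0 and other tests, filters, thresholds, length, pairing and leaving out libraries. Loci and coding sequence are from GENCODE vM21.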

Additional observations from a re-analysis of the deposited data

Results flagged for a closer look

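The site difference of COL2A1 and of COL3A1 differed between mouse and macaque in the interaction test. For COL2A1 the difference of log2 fold changes was -5.73, mouse being lower in calvaria and macaque higher, and for COL3A1 it was 3.18, mouse being higher in calvaria and macaque lower. Adjusted p was 0.0505 for COL2A1 and 0.110 for COL3A1 (edgeR quasi-likelihood test), so neither was under 0.05. Groups held 2 or 3 libraries, so none was searched for a sample far from the others.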

How the results depend on the processing

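Of 361 values of named genes under alternatives, 42 changed sign, 29 of them on leaving out a library. Calls of mouse collagens, 0 at first, came to 5 with DESeq2, 6 with the exact test, 6 with the likelihood ratio test, 5 without the filter, 1 with a replicate block of assumed pairs, 3 with the other assumed pairs, 3 with block and length correction, and 0 to 28 on leaving out a library. Mouse pairing could not be judged, with correlations of 0.0157 and -0.0157. Macaque collagens, 3 at first, came to 1 under a false discovery rate of 0.05, 5 by library size alone, 5 with the replicate block, 6 with block and length correction, 5 with LOC symbols renamed, and 1 to 9 on leaving out a library. Rat collagens, 3 at first, came to 11 of 33 beyond a log2 ratio of 1, where 24% of all tested rat genes were (20% toward tibia). The interaction, 2 at first, came to 0 under 0.05 and 0 to 6 on leaving out a library. Processing and receptor genes came in mouse, 0 at first, to 4 with DESeq2, 3 with the exact test, 4 with the likelihood ratio test, 4 without the filter, 1 with either block and 1 with block and length correction, and 0 to 35 on leaving out a library. In macaque, processing and receptor genes, 5 at first, came to 2 under 0.05, 1 over a log2 fold change of 1.1 and 10 by library size alone. They came to 12 with the block and 3 to 15 on leaving out a library. Of all tested macaque genes, 11.2%, 10.6%, 33.5% and 36.7% passed in the first 4 of these settings, and 14.9% to 37.5% on leaving out a library. The share of reads on collagens changed sign in both species, to -0.745 points in mouse without M4 (range -0.745 to 2.40 on leaving out a library) and 1.75 in macaque without T2 (range -2.88 to 1.75). The block changed no other call of a macaque collagen than those given.
The block reversed mouse COL5A2 (-0.0067), COL6A1 (-0.089) and COL6A2 (-0.20) and macaque COL1A1 (0.16), COL1A2 (0.12), COL5A2 (0.051) and COL6A2 (-0.018). Length correction reversed macaque COL18A1 (0.034), COL1A1 (0.13), COL1A2 (0.023), COL5A2 (0.070) and COL6A3 (0.16), and library size alone COL6A2 (-0.21). The cause of these changes was not tested. Depth leaves macaque COL2A1 with 2 to 80 reads per library and COL4A6 with 10 to 62.
On leaving out a library, mouse COL1A1 ran from -0.23 to 0.93, COL1A2 from -0.22 to 0.97, COL5A1 from -0.080 to 1.67, COL5A2 from -0.87 to 0.80, COL6A1 from -1.15 to 0.91, COL6A2 from -1.35 to 0.89 and COL6A3 from -1.27 to 1.86. Macaque COL18A1 ran from -0.76 to 0.18, COL1A1 from -0.39 to 0.82, COL1A2 from -0.47 to 0.77, COL5A2 from -0.41 to 0.59 and COL6A2 from -0.27 to 0.15. The interaction of COL1A1 ran from -0.36 to 1.01, COL1A2 from -0.29 to 1.14, COL4A2 from -1.01 to 0.10, COL5A2 from -0.71 to 0.96, COL6A2 from -1.35 to 0.90 and COL6A3 from -1.10 to 2.02.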
